A study of Mus musculus with 4 samples.

Results

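The mitochondrial genome of the mouse carries 37 genes, and all 37 were listed in each of the 4 FPKM tables of late 2-cell embryos, among 47445 gene identifiers in all. They were taken as every row whose symbol begins with mt-, which gave 13 mRNAs, 2 rRNAs and 22 tRNAs. FPKM stands for fragments per kilobase of transcript per 1000000 mapped fragments, so it sets the reads of a gene against its length and the size of the library. The 2 Uqcc3 siRNA libraries came from C57BL/6N embryos injected with a 5 µM siRNA against Uqcc3 at 8 hpi, as the labels write the time. The 2 control libraries came from C57BL/6N embryos of the same stage. Their protocol describes a negative-control siRNA at the same concentration and time, while their treatment label reads none and the design text calls them normal embryos. The females were 8 weeks old, only injected embryos of normal morphology were collected, and the sources used here do not say how many embryos made up a library. Uqcc3 RNA itself stood at 23.7 and 19.8 FPKM in the siRNA libraries, against 147 and 211 FPKM in the controls.

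Mitochondrial DNA is transcribed from both strands as long precursors that span many genes. Most mRNAs and both rRNAs are separated by tRNAs, and cutting the tRNAs out of the precursor frees the RNAs between them. The 13 mRNAs encode core subunits of the respiratory chain and of ATP synthase, and the rRNAs and tRNAs serve their translation inside the organelle. mt-Cytb is the one complex III subunit made from this genome, and Uqcc3 is an assembly factor of complex III. An embryo inherits its mitochondria from the oocyte. On the plus strand of the reference lie 28 of the genes, and mt-Nd6 and 8 tRNAs lie on the minus strand.

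Depth was about 12100000 and 12200000 fragments in siRNA replicates 1 and 2, against 17200000 and 19600000 in control replicates 1 and 2. The library of siRNA replicate 2 stood apart. Across tested genes, which are not independent replicates, the correlation of its log2 values with any other library was 0.624 to 0.651, while among the other 3 libraries it was 0.867 to 0.875. It had 14506 FPKM of the nuclear rRNA gene Rn18s-rs5, against 566 FPKM in siRNA replicate 1 and 1023 and 183 FPKM in control replicates 1 and 2. All 7 markers of 2-cell embryos were at 1 FPKM or more in every library, and their sum was 9114 and 3341 FPKM with siRNA, against 11369 and 13549 FPKM in the controls. All 6 oocyte markers were present as well, with sums of 242 and 319 FPKM against 203 and 235 FPKM. Sums stayed at or under 4.45 FPKM for 8 cumulus markers (Amh and Fshr at 0 throughout), 17.6 FPKM for 4 sperm markers and 28.5 FPKM for 5 blood markers (Hbb-bs at 0 throughout). The part of these markers in the results was not tested. Sample titles end in one way for siRNA and in another for control, and if this marks a batch, batch and group cannot be told apart.

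The mRNAs fell into 2 sets by their place on the genome, in every library. GENCODE M21 annotates 7 pseudogenes on chromosome 1 of mm10, from 24611535 to 24616197, that lie side by side on the minus strand in the order of the mitochondrial genes. Their transcripts match mitochondrial sequence between bases 6390 and 11042 at 99.7% to 100% identity in blastn. The stretch is taken between the outermost aligned bases. Bases between the copies, which hold tRNA genes and most of mt-Atp8, were not aligned. The stretch holds 6 mRNAs whole: mt-Co2 and mt-Co3, core subunits of cytochrome c oxidase, mt-Atp8 and mt-Atp6 of ATP synthase, and mt-Nd3 and mt-Nd4l of complex I. No copy of mt-Atp8 is annotated, and it lies between Gm28661 and Gm10925, the copies of mt-Co2 and mt-Atp6. The last 483 of the 1545 bases of mt-Co1 and the first 876 of the 1378 bases of mt-Nd4 also lie inside. The other 5 mRNAs, mt-Nd1, mt-Nd2, mt-Nd5, mt-Nd6 and mt-Cytb, lie outside.

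The letters below show how close the copies are. They are GENCODE M21 transcript bases in mm10, each from 5′ to 3′ in the sense of the gene, and capitals mark bases that differ within a pair. The first 60 bases of mt-Co2 (chromosome M, 7013 to 7696, plus strand) and of its copy Gm28661 hold no difference.
mt-Co2: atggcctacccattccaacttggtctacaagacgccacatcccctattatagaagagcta
Gm28661: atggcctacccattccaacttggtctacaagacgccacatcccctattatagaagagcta
In mt-Nd3 (chromosome M, 9459 to 9806, plus strand) 1 of 345 aligned bases differs from Gm28438, written T3C, with the mitochondrial base first, its position from the first base of the gene, then the base of the copy.
mt-Nd3: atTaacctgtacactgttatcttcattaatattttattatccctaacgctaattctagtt
Gm28438: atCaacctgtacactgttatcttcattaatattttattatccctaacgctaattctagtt
For contrast, mt-Cytb (chromosome M, 14145 to 15288, plus strand) has an annotated relative on chromosome 4, Gm11410, that matches 1142 bases at 92.9%, and bases 561 to 620 hold 6 differences from it.
mt-Cytb: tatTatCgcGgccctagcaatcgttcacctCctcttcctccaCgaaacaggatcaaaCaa
Gm11410: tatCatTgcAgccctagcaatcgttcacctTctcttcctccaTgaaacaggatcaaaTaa

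The 6 mRNAs inside the stretch were listed far below the 5 outside it. Inside, levels ran from 0 to 85.5 FPKM in siRNA replicate 1 and from 0 to 8.49 FPKM in siRNA replicate 2, against 0 to 18.5 FPKM and 1.08 to 108 FPKM in control replicates 1 and 2. Outside, they ran from 1585 to 57615 FPKM and from 590 to 4778 FPKM with siRNA, against 722 to 44269 FPKM and 720 to 47540 FPKM in the controls. The lowest mRNA outside was thus 18.5 and 69.5 times the highest inside in the siRNA libraries, and 39.1 and 6.65 times in the controls. Together the 6 mRNAs inside made up 0.115% and 0.133% of the summed mitochondrial mRNA FPKM with siRNA, against 0.0503% and 0.280% in the controls. The sources used here do not say how reads that match several places were counted, and the part of the nuclear copies in these low values was not tested. The levels of these 6 mRNAs, of their tRNA neighbours and of mt-Co1 and mt-Nd4 are therefore uncertain.

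**Figure D1:**
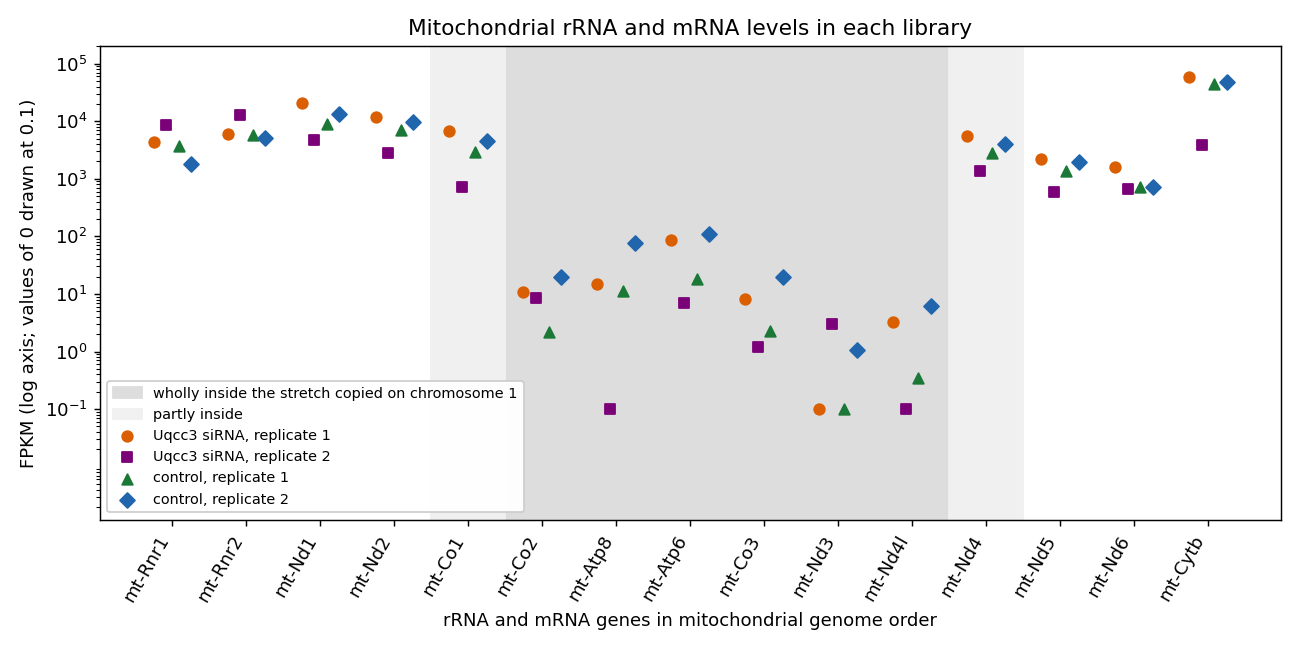
FPKM on a log axis of the 2 rRNAs and 13 mRNAs in genome order, with 1 point per library (2 Uqcc3 siRNA, 2 control) and values of 0 drawn at 0.1. The 6 mRNAs in the dark band stay at or under 108 FPKM in all 4 libraries, while the 5 outside both bands stay at or above 590 FPKM.

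mt-Atp6 was the highest of the 6 in 3 libraries, at 85.5 and 7.09 FPKM with siRNA and 18.5 and 108 FPKM in the controls. Its copy Gm10925 stood at 121 and 11.6 FPKM with siRNA, against 42.1 and 345 FPKM in the controls. The copy was thus above the gene in each library, and the groups overlapped for both. The same held for mt-Co2, at 10.9 and 8.49 FPKM with siRNA against 2.16 and 19.4 FPKM in the controls. Its copy Gm28661 stood at 20.3 and 21.3 FPKM with siRNA, against 5.06 and 51.9 FPKM. mt-Co3 stood at 8.22 and 1.22 FPKM with siRNA and 2.25 and 19.4 FPKM in the controls, and its copy Gm28437 at 13.5 and 3.29 FPKM against 2.78 and 24.9 FPKM. Gm28438, the copy of mt-Nd3, had 2.99 and 5.63 FPKM with siRNA, against 0.270 and 6.58 FPKM in the controls. Gm10222, the copy of mt-Nd4l, had 7.82 and 0.494 FPKM with siRNA, against 3.90 and 24.4 FPKM in the controls. In all 5 pairs of a gene and its whole copy, the copy was the higher in all 4 libraries. Control replicate 2 was the highest library for 5 of the 6 mRNAs and for all 7 copies. mt-Atp8 stood at 14.7 and 0 FPKM with siRNA and at 11.1 and 75.4 FPKM in the controls, mt-Nd3 at 0 and 2.96 FPKM against 0 and 1.08 FPKM, and mt-Nd4l at 3.29 and 0 FPKM against 0.349 and 6.25 FPKM. These last 3 rest on few implied fragments, taken from the distance of the bounds to the FPKM value. The largest of the 3 was 12.1 and 8.00 in the siRNA libraries and 14 and 79.3 in the controls. mt-Atp8 and mt-Nd4l overlap a neighbour, by 43 and 7 bases, so their implied fragments may be understated and are not upper limits.

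**Figure D2:**
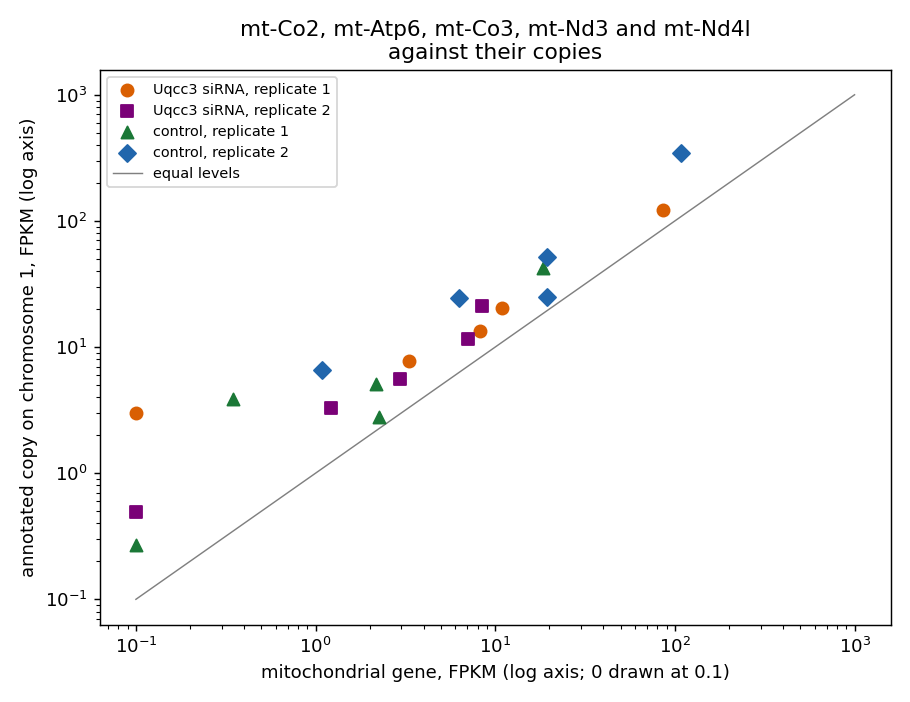
FPKM of mt-Co2, mt-Atp6, mt-Co3, mt-Nd3 and mt-Nd4l (x axis) against FPKM of their annotated copies on chromosome 1 (y axis), both on log axes, with 1 point per gene and library and values of 0 drawn at 0.1. All 20 points lie above the line of equal levels, and the control replicate 2 point of mt-Atp6 is the highest, at 108 and 345 FPKM.

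The 2 genes that lie partly inside were within the range of those outside. mt-Co1, the catalytic subunit of cytochrome c oxidase, had 6844 and 727 FPKM with siRNA, against 2895 and 4527 FPKM in the controls. mt-Nd4, a membrane subunit of complex I, had 5645 and 1384 FPKM with siRNA, against 2819 and 4006 FPKM. Referred only to the 1062 and 502 bases outside the stretch, mt-Co1 came to 9956 and 1058 FPKM against 4212 and 6586 FPKM, and mt-Nd4 to 15496 and 3800 FPKM against 7738 and 10997 FPKM. The copies of their inner parts stayed low, with Gm29216 (mt-Co1) at 10.4 and 3.10 FPKM against 2.06 and 34.6 FPKM, and Gm28439 (mt-Nd4) at 6.68 and 3.52 FPKM against 1.21 and 15.1 FPKM. This scale takes every fragment of the 2 genes as lying in the outer bases, which was not tested. On it mt-Nd4 lay between mt-Nd1 and mt-Nd2, which are given further on, in all 4 libraries. mt-Co1 lay below mt-Nd2 and above mt-Nd5 in all 4.

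Each rRNA had its 2 higher values with siRNA and its 2 lower ones in the controls. mt-Rnr1, the RNA of the small mitochondrial ribosomal subunit (chromosome M, 70 to 1024), stood at 4320 and 8736 FPKM with siRNA, against 3767 and 1780 FPKM in the controls. The means were 6528 ± 3123 FPKM with siRNA and 2773 ± 1405 FPKM in controls (SD, n = 2 each). Its log2 difference was 1.25 (SE 0.74, limma adjusted p = 0.745), so it did not pass the threshold of 0.05. mt-Rnr2, the RNA of the large subunit (1094 to 2675), stood at 6001 and 12790 FPKM with siRNA, against 5798 and 5104 FPKM in the controls, a log2 difference of 0.69 (SE 0.73, limma adjusted p = 0.829). In siRNA replicate 1 mt-Rnr2 was close to control replicate 1, and siRNA replicate 2 held the larger value of each rRNA. That library also had the most Rn18s-rs5, and the part of this in the rRNA values was not tested. The cDNA was primed with oligo(dT), so FPKM here reflects RNA that was primed and amplified, not all RNA of a gene. The part of priming in the rRNA, tRNA and mt-Nd6 values, and in ratios that use them, was not tested. Summed, the rRNAs came to 10321 and 21526 FPKM with siRNA, against 9565 and 6884 FPKM, and an exact permutation test over the 4 libraries gave a two-sided p of 0.33, the smallest that 2 against 2 allows.

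The mRNAs outside the stretch went opposite ways in the 2 siRNA libraries. All 7 mRNAs outside or partly inside were highest in siRNA replicate 1 and lowest in siRNA replicate 2, with both controls between them. mt-Nd1, a membrane subunit of complex I (2751 to 3707), stood at 21154 and 4778 FPKM with siRNA, against 8966 and 13550 FPKM in the controls. mt-Nd2, also of complex I (3914 to 4951), stood at 11762 and 2852 FPKM, against 7070 and 9679 FPKM. mt-Nd5, another membrane subunit of complex I (11742 to 13565), stood at 2195 and 590 FPKM, against 1387 and 1944 FPKM. In each of these the siRNA libraries lay on both sides of the controls, so the groups overlapped. The log2 differences were -0.13 (SE 0.90) for mt-Nd1, -0.51 (SE 0.86) for mt-Nd2 and -0.53 (SE 0.77) for mt-Nd5, and none passed in limma (adjusted p = 0.982, 0.897 and 0.879). After scaling to genes outside the mitochondrial genome the sign of all 3 turned, to 0.42, 0.036 and 0.021.

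mt-Cytb, cytochrome b, was the most abundant mRNA in 3 of the 4 libraries. It stood at 57615 and 3853 FPKM with siRNA, against 44269 and 47540 FPKM in the controls. The means were 30734 ± 38016 FPKM with siRNA and 45905 ± 2313 FPKM in controls (SD, n = 2 each). The 2 controls differed by 0.10 on the log2 scale, siRNA replicate 1 lay 0.33 above their mean, and siRNA replicate 2 lay at -3.57 from it. The log2 difference between the groups was -1.62 (SE 1.26, limma adjusted p = 0.780) and did not pass. In siRNA replicate 2 mt-Nd1 exceeded mt-Cytb, and both rRNAs exceeded every mRNA. Neither mt-Cytb nor the rRNAs overlap an annotated mitochondrial neighbour, and the deposited bounds of these 3 genes lay 0.208% to 1.19% from the value. The bounds of mt-Nd1, mt-Nd2, mt-Co1, mt-Nd4, mt-Nd5 and mt-Nd6, which overlap a neighbour by 2 to 14 bases, lay 4.15% to 5.42% away.

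mt-Nd6, a complex I subunit and the only mRNA of the minus strand (13552 to 14070), was the least lowered of these 7 in siRNA replicate 2. It stood at 1585 and 676 FPKM with siRNA, against 722 and 720 FPKM in the controls. The 2 controls were nearly equal, siRNA replicate 1 lay 1.13 above their mean on the log2 scale, and siRNA replicate 2 lay at -0.093. Its log2 difference of 0.52 (SE 0.65, limma adjusted p = 0.857) did not pass, and it lay above both controls in both siRNA libraries after each of 3 rescalings between libraries, but not as deposited. Nothing in the sources used here says that strand was kept, so RNA of the opposite strand across mt-Nd6 cannot be told apart from its mRNA.

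**Figure D3:**
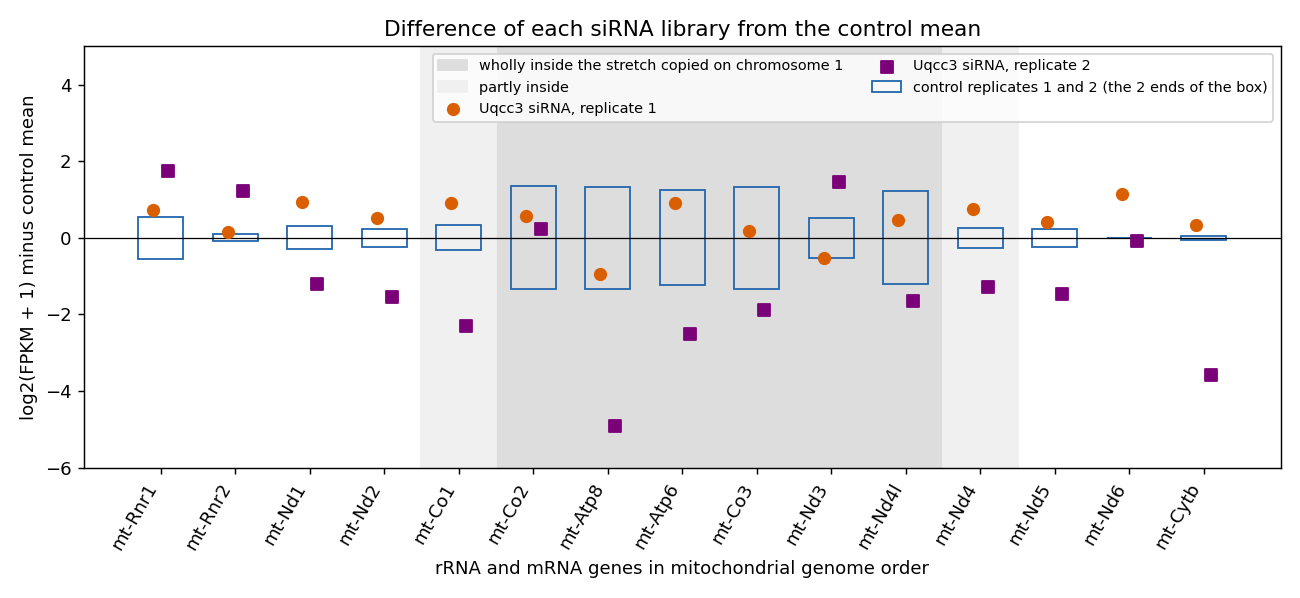
Difference of each siRNA library from the mean of the controls in log2(FPKM + 1), for the 2 rRNAs and 13 mRNAs in genome order; the ends of each box are the 2 controls. Outside the dark band the mRNAs of siRNA replicate 1 lie above 0 and those of siRNA replicate 2 below it, with mt-Cytb at -3.57, while both rRNAs lie above the controls in both siRNA libraries.

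Summed over the 13 mRNAs, mitochondrial mRNA came to 106922 and 14880 FPKM with siRNA, against 68163 and 82196 FPKM in the controls. The siRNA libraries lay on both sides of the controls (log2 difference -0.91, exact permutation p = 1.00), and the difference was 0.51 without siRNA replicate 2, -2.33 without siRNA replicate 1 and -0.36 after scaling to genes outside the mitochondrial genome. All 37 genes together took 28.0% and 16.6% of all FPKM with siRNA, against 17.4% and 18.0% in the controls. The tRNAs alone took 8.30% and 8.25% with siRNA, against 6.03% and 5.18%. In FPKM 1 tRNA fragment weighs far more than 1 mRNA fragment, as given further on. The totals therefore do not measure the mitochondrial part of the RNA.

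None of the 27 genes that passed the filter of 1 FPKM in 2 libraries passed an adjusted p of 0.05 in limma, where 0.0% of all 12390 genes did. Their adjusted p ran from 0.745 to 0.982, and 2, mt-Ti and mt-Ts2, had an unadjusted p under 0.05, as did 5.96% of all genes. The 27 were all 13 mRNAs, both rRNAs and 12 of the tRNAs. In 8 of them, both rRNAs and 6 tRNAs, both siRNA libraries lay above both controls, as in 8.6% of all genes. In 1, mt-Tm, both lay below, as in 30.0% of all genes. None of the 13 mRNAs was in either count, and their median log2 difference was -0.53, against -0.39 over all genes. The median of the mRNAs was 0.51 with siRNA replicate 1 taken alone and -1.54 with siRNA replicate 2 alone, while that of all genes was -0.30 and -0.57. Scaling to genes outside the mitochondrial genome and without Rn18s-rs5 moved the median of all genes to 0.021 and that of the mRNAs to 0.021, and 11 members then lay above both controls (16.8% of all genes) and 1 below (18.3%). Median-of-ratios scaling gave 11 above (16.0%) and 1 below (19.8%) as well. The 3 that joined were mt-Tf, mt-Ta and mt-Nd6. Leaving out siRNA replicate 1 brought 6 members past the threshold: mt-Cytb, mt-Co1, mt-Nd2 and mt-Tm lower, and mt-Rnr2 and mt-Tp higher. That fit sets siRNA replicate 2 alone against the controls and assumes it varies as they do, and it called 11.9% of all genes (1477). Leaving out siRNA replicate 2 gave the 27 members a median log2 difference of 0.56, against -0.30 over all genes. With 1 library left out, fewer values must be cleared and the counts over all genes were larger too. Without siRNA replicate 2, 18 of the 27 lay above both controls (20.6% of all genes) and 3 below (48.3%). Without siRNA replicate 1, 10 lay above (32.0%) and 14 below (50.5%), and 14 of 27 is near the share of all genes. Without control replicate 1, 9 lay above (20.1%) and 7 below (41.9%), and without control replicate 2, 9 lay above (16.4%) and 1 below (44.2%). In embryo libraries fewer mitochondria, fewer genomes in each and less RNA per genome cannot be told apart.

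The share of each mRNA within the mitochondrial mRNA does not move with the level of the whole. mt-Cytb made up 53.9% and 25.9% of the summed FPKM of the 13 mRNAs with siRNA, against 64.9% and 57.8% in the controls. Both siRNA libraries lay below both controls, with means of 39.9% ± 19.8 and 61.4% ± 5.03 (SD, n = 2 each). mt-Nd1 made up 19.8% and 32.1% with siRNA, against 13.2% and 16.5%, and lay above both controls in both. The same was seen for mt-Nd4, at 5.28% and 9.30% against 4.14% and 4.87%, and for mt-Nd6, at 1.48% and 4.54% against 1.06% and 0.876%. mt-Nd2 stood at 11% and 19.2% against 10.4% and 11.8%, mt-Co1 at 6.40% and 4.89% against 4.25% and 5.51%, and mt-Nd5 at 2.05% and 3.96% against 2.04% and 2.37%. These 3 overlapped between the groups. Of the 13 shares 5 did not overlap, the fifth being mt-Atp8 at 0.0137% and 0% against 0.0162% and 0.0917%. Shares sum to 100%, so they are not independent, and the exact permutation test gave p = 0.33 for each of the 5, the smallest it allows, and 0.867 adjusted over the 13. The size of these differences depended on the measure. By implied fragments in place of FPKM the difference was -9.32 points for mt-Cytb and 1.75 for mt-Nd1, against -21.5 and 11.1 points by FPKM. However, implied fragments of mt-Nd1 stayed between 2245 and 2328 while its FPKM ran from 4778 to 21154. They understate genes that overlap a neighbour, so shares by implied fragments cannot decide the size of these differences. With the rRNAs in the sum it was 2.21 points for mt-Nd1 and 0.25 for mt-Nd4, against 11.1 and 2.79.

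**Figure D4:**
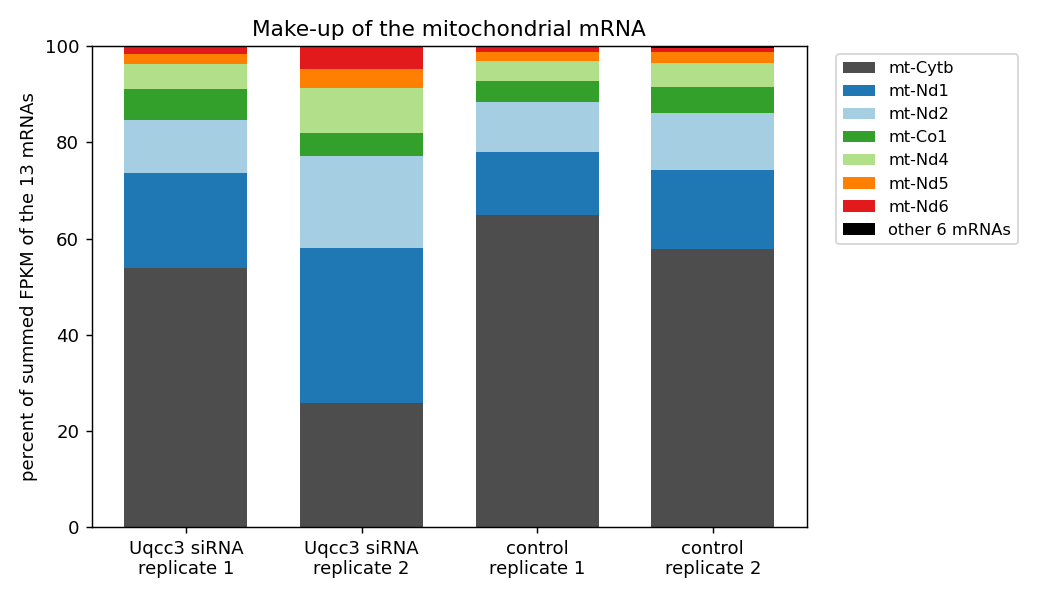
Percent of the summed FPKM of the 13 mitochondrial mRNAs taken by each of the 7 mRNAs outside or partly inside the copied stretch, and by the other 6 together, in each library. The grey part at the base, mt-Cytb, takes 53.9% and 25.9% in the siRNA libraries, against 64.9% and 57.8% in the controls.

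Ratios within a library do not depend on its scaling either, and 4 were compared, chosen after the values were seen. mt-Nd6 to its plus-strand neighbour mt-Nd5 stood at 0.722 and 1.15 with siRNA, against 0.521 and 0.370 in the controls. Small to large rRNA, mt-Rnr1 to mt-Rnr2, stood at 0.720 and 0.683, against 0.650 and 0.349. In both ratios the siRNA libraries lay above the controls (log2 differences of 1.05 and 0.56, exact permutation p = 0.33 each, adjusted over the 4 ratios 0.667). The difference in the rRNA ratio was 0.11 without control replicate 2 and 1.01 without control replicate 1. Summed rRNA to summed mRNA stood at 0.0965 and 1.45 with siRNA, against 0.140 and 0.0837, so it was high in siRNA replicate 2 and within the controls in siRNA replicate 1. mt-Cytb to mt-Nd5 stood at 26.3 and 6.53, against 31.9 and 24.5, again with siRNA replicate 1 within the controls.

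The tRNAs, which carry amino acids to the mitochondrial ribosome, are shorter than a sequencing read of 150 bases. With cDNA primed by oligo(dT), their values need not follow the amount of mature tRNA. In FPKM, 1 tRNA fragment weighed far more than 1 mRNA fragment: it was worth a median of 31.5 and 87.9 FPKM over 9 tRNAs with siRNA, against 24.4 and 58.2 FPKM in the controls. One fragment of mt-Cytb was worth 0.0843 and 0.0796 FPKM with siRNA, against 0.0573 and 0.0515 FPKM. Levels of tRNAs therefore cannot be set beside mRNA levels, and between libraries a tRNA's FPKM also moves with what 1 fragment is worth. The 3 tRNAs below are shown for their length and because they are the most abundant or differ most clearly, in the sense of the gene.
mt-Tq: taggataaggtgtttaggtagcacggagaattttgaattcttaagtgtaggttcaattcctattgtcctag
mt-Tp: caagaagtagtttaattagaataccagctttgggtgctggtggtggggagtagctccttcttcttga
mt-Ti: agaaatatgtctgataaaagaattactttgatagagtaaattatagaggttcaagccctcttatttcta
mt-Tq, the glutamine tRNA of the minus strand (chromosome M, 3772 to 3842), has 71 bases, mt-Tp, for proline on the minus strand (15356 to 15422), has 67, and mt-Ti, for isoleucine on the plus strand (3706 to 3774), has 69.

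mt-Tq had the highest FPKM of the tRNAs in all libraries. It stood at 34897 and 17628 FPKM with siRNA, against 31305 and 24405 FPKM in the controls, which was 70.5% and 48.9% of all tRNA FPKM against 76.0% and 67.8%. The deposited bounds imply only 840 and 218 fragments with siRNA, against 932 and 420 in the controls. The groups overlapped on both scales. However, mt-Tq overlaps mt-Ti, which also overlaps mt-Nd1, so implied fragments of both tRNAs may be understated, and not equally between libraries. One implied fragment of mt-Tq was worth 41.5 and 80.7 FPKM with siRNA, against 33.6 and 58.1 FPKM in the controls. mt-Tp stood at 6783 and 10188 FPKM with siRNA, against 2698 and 4152 FPKM, and its log2 difference was 1.31 (SE 0.69, limma adjusted p = 0.745). Implied fragments were also scaled to fragments per 1000000 fragments of depth (FPM), with no division by length. mt-Tp then stood at 16.5 and 8.50 FPM with siRNA, against 5.97 and 3.24 FPM. Both siRNA libraries thus lay above both controls on either scale. Strand is not stated to have been kept. As for mt-Nd6, RNA of the opposite strand across mt-Tp or mt-Tq cannot be told apart from these tRNAs. mt-Ti, at 1002 and 2339 FPKM against 250 and 702 FPKM, rested on 31.8 and 26.6 implied fragments with siRNA against 10.1 and 12.1 in the controls. These were 2.63 and 2.18 FPM with siRNA and 0.585 and 0.617 FPM in the controls. It was again higher in both siRNA libraries, with a log2 difference in FPKM of 1.87 (SE 0.75, unadjusted p = 0.0388 and adjusted p = 0.745 in limma), which did not pass.

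Of the 6 tRNAs above both controls by FPKM, 3 were so by FPM as well: mt-Tp, mt-Ti and mt-Ts2. mt-Ts2, a serine tRNA, rested on 0.50 and 1.33 implied fragments with siRNA and 0.50 and 0 in the controls, too few to read. It shares base 11671 with mt-Tl2, so implied fragments of mt-Ts2 and mt-Tl2, like those of mt-Ti, may be understated. The leucine tRNA mt-Tl1 stood at 1134 and 1021 FPKM with siRNA against 638 and 931 FPKM, but at 4.36 and 1.56 FPM against 2.32 and 1.32. mt-Tt, for threonine, stood at 1504 and 882 FPKM against 760 and 503 FPKM, but at 3.66 and 0.739 FPM against 1.68 and 0.409. mt-Tl2, the other leucine tRNA, stood at 209 and 287 FPKM against 159 and 93.5 FPKM, but at 0.514 and 0.238 FPM against 0.361 and 0.0679. On the scale of fragments all 3 overlapped between the groups. mt-Tm, for methionine, lay below both controls by FPKM, at 2004 and 1336 FPKM with siRNA against 3407 and 3511 FPKM, but overlapped them by FPM, at 5.46 and 1.31 against 8.71 and 3.20.

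The other 5 tested tRNAs overlapped between the groups by FPKM. mt-Tf, for phenylalanine, stood at 376 and 271 FPKM with siRNA against 317 and 175 FPKM. mt-Tv, for valine between the rRNAs, stood at 118 and 251 FPKM against 159 and 378 FPKM, with 3 to 7 implied fragments per library, and by FPM it lay below both controls, at 0.331 and 0.246 against 0.406 and 0.358. The minus-strand mt-Ta, for alanine, stood at 1090 and 668 FPKM against 818 and 756 FPKM. Its neighbour mt-Tc, for cysteine, had 250 and 744 FPKM against 649 and 408 FPKM. These 4 and mt-Tq had no direction in common. Summed, the tRNAs came to 49489 and 36015 FPKM with siRNA, against 41211 and 36015 FPKM in the controls, with an exact permutation p of 1.00. The remaining 10 tRNAs were not tested: mt-Tr was listed at 62.7 FPKM in siRNA replicate 1 and at 0 in the other libraries, and 9 were listed at 0 in all 4. Of those 9, mt-Ts1, mt-Td, mt-Tk and mt-Tg lie inside the copied stretch and mt-Tw, mt-Tn, mt-Ty, mt-Th and mt-Te outside it.

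**Figure D5:**
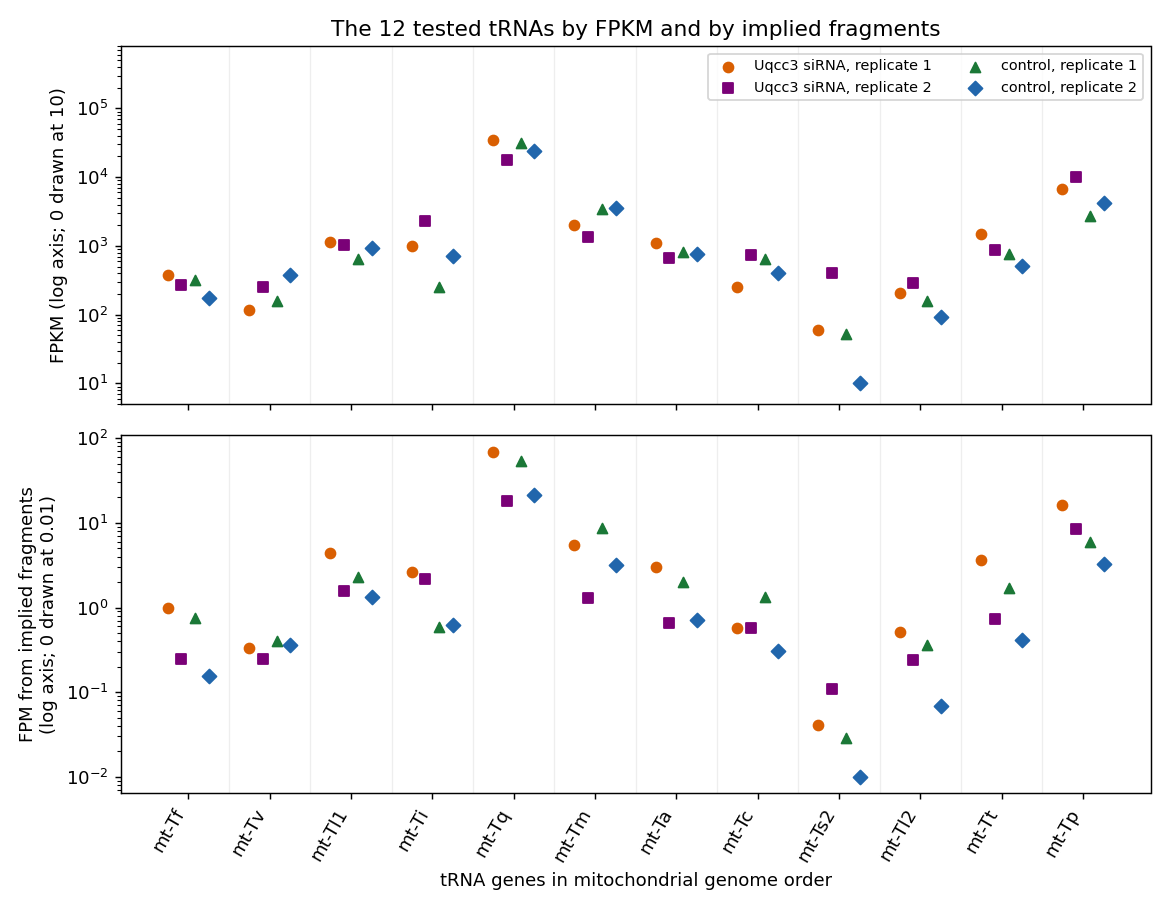
The 12 tested tRNAs in genome order as FPKM (upper panel; 0 drawn at 10) and as fragments implied by the deposited bounds per 1000000 fragments of depth, FPM (lower panel; 0 drawn at 0.01), both on log axes, with 1 point per library. In both panels the siRNA points of mt-Tp and mt-Ti all lie above the control points, while mt-Tl1 and mt-Tt do so only by FPKM.

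Nuclear genes whose proteins transcribe, cut and stabilise mitochondrial RNA were read from the same fit. Of 35 listed genes 34 were found and 29 were tested, and 0 passed in limma, with 3 under an unadjusted p of 0.05. In 12 both siRNA libraries lay below both controls, against 30.0% of all genes, and in 1 they lay above, against 8.6%. After median-of-ratios scaling 9 lay below (19.8% of all genes) and 4 above (16.0%). After scaling to genes outside the mitochondrial genome 8 lay below (18.3% of all genes) and 4 above (16.8%). Without control replicate 1, 8 lay above (20.1% of all genes) and 15 below (41.9%). Without siRNA replicate 1, 7 lay above (32.0%) and 15 below (50.5%). Their median log2 difference was -0.56, against -0.39 for all genes. Tfb2m, which starts transcription together with the mitochondrial RNA polymerase, stood at 21.2 and 12.8 FPKM with siRNA, against 82.5 and 47.6 FPKM in the controls (log2 difference -1.86, SE 0.72). Trmt10c and Hsd17b10 encode partners in the mitochondrial RNase P, which cuts the 5′ ends of tRNAs. Trmt10c stood at 15.7 and 16.7 FPKM with siRNA, against 52.1 and 61.7 FPKM, and Hsd17b10 at 6.04 and 0.0955 FPKM, against 11.6 and 37.6 FPKM. Polg, the catalytic subunit of the mitochondrial DNA polymerase, was the 1 gene above both controls in the values as deposited, at 2.26 and 7.34 FPKM with siRNA against 0 and 1.02 FPKM. These 4 had the smallest unadjusted p of the list, from 0.0331 to 0.0779, and each had an adjusted p of 0.745 in limma.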

How the data were processed

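RNA of 2 Uqcc3 siRNA and 2 control libraries of late 2-cell embryos was analysed. Per the labels' protocols, full-length cDNA was primed with oligo(dT), amplified for 18 cycles, fragmented and amplified for 15 cycles. Per the file headers, each deposited table gives the FPKM of every gene in 1 library between 2 bounds. Per the submitters' processing notes reads were handled with STAR 2.7.3a, Cufflinks 2.2.1, Cuffdiff 2.2.1, Trim Galore 0.6.5 and SAMtools 1.7, and the build was mm10; roles and order are not listed. The annotation release, the handling of reads with several matches and strand are not given in the sources used here.

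Rows of 1 identifier were summed (50 identifiers), and 2 with a failed estimate were left out. Genes that reached 1 FPKM in 2 or more of the 4 libraries entered a single two-sided limma fit (version 3.58.1 in R 4.3.3) of log2(FPKM + 1), in which the prior variance followed mean level. Its p-values were Benjamini-Hochberg adjusted over all 12390 genes, with a threshold of 0.05. For low genes a difference on this scale is smaller than the true fold. Sums, shares and ratios were compared by two-sided exact permutation, which cannot go below 0.33 here. Replicates are not stated to be separate animals or injections, so p-values measure the spread between these libraries. The fit was tested on simulated data with large planted differences and a smaller spread than these libraries had. That checks the code, not its power at the spread seen here.

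Implied fragments are the square of FPKM over its error, the error being the distance to the upper bound divided by 2. They cover counting error only. Depth is the median of fragments over FPKM and length in genes with 1 transcript of at least 3000 bases and 5 to 100 fragments within 0.05 of a whole number. Implied fragments understate genes that overlap a neighbour. Positions are those of GENCODE M21, which equalled the files' loci for all 37 genes. Nuclear copies were found with blastn 2.17.0 among GENCODE M21 transcripts, at 85% identity over 150 bases or more. Replicates were numbered in accession order. The rule for named genes took all members, Uqcc3, Rn18s-rs5, the 7 chromosome 1 copies and the 4 genes of the pathway list with the smallest p. Gm11410, Gm13339, Gm13340 and the markers at 0 (Amh, Fshr, Hbb-bs) were named after their values were seen. Members and lists were chosen with earlier results of these data known. Alternatives were the pseudocount, the filter, 3 rescalings, no trend, other denominators of the shares and leaving out each library.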

Additional observations from a re-analysis of the deposited data

How the results depend on the processing

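No paired analysis was possible because the labels give no replicate numbers that the groups share. With 2 libraries a group the direction of most differences rested on siRNA replicate 2 or siRNA replicate 1. Across all settings that kept all 4 libraries (another pseudocount, no filter or a stricter one, TPM, median-of-ratios scaling, scaling to genes outside the mitochondrial genome without Rn18s-rs5, no trend, other share denominators), 0 genes passed the threshold, and of 299 values 275 kept their direction and side of the threshold (counts within 1.5 times), 19 reversed, and 5, all of them the pathway list's count above the controls, moved from 1 to between 0 and 4. Sizes changed more: under TPM, median-of-ratios and nuclear scaling the summed mRNA difference was -0.47, -0.52 and -0.36 in place of -0.91, that of the tRNAs 0.57, 0.52 and 0.68 in place of 0.13, and that of the rRNAs 1.31, 1.27 and 1.43 in place of 0.88. The cause of the reversals was not tested. Under TPM, median-of-ratios and nuclear scaling in turn, the log2 difference was 0.30, 0.26 and 0.42 for mt-Nd1, 0.28, 0.23 and 0.39 for mt-Tq, 0.18, 0.13 and 0.29 for mt-Tc, and 0.17, 0.12 and 0.28 for mt-Nd4. Nuclear scaling alone turned mt-Tv to 0.037, mt-Nd2 to 0.036 and mt-Nd5 to 0.021. With the rRNAs in the denominator the differences in share were -1.05 points for mt-Nd2, -0.49 for mt-Co1 and -0.24 for mt-Nd5, and by implied fragments that of mt-Atp6 was 0.019. The summed class levels have no value of their own without the trend or the filter. The filter and the trend cannot change the log2 difference of a gene, only its adjusted p. Part of the 275 values therefore kept their direction by construction.

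Leaving out each library in turn gave 0 to 1477 genes and 0 to 6 mitochondrial genes past the threshold, 9 to 18 mitochondrial genes above the controls and 1 to 14 below, and 15 to 18 genes of the pathway list below and 2 to 8 above. Over all genes these settings gave 16.4% to 32.0% above and 41.9% to 50.5% below, so larger counts were shared by all genes. The summed mRNA level ranged over log2 differences of -2.33 to 0.51, the tRNA level over -0.097 to 0.36, and the rRNA to mRNA ratio over -0.17 to 3.74. Log2 differences that changed sign were those of mt-Atp6 (-2.51 to 0.91), mt-Co1 (-2.31 to 0.92), mt-Co2 (-0.94 to 1.75), mt-Co3 (-2.17 to 0.47), mt-Cytb (-3.57 to 0.33), mt-Nd1 (-1.21 to 0.94), mt-Nd2 (-1.54 to 0.51), mt-Nd3 (-0.53 to 1.46), mt-Nd4 (-1.28 to 0.75), mt-Nd4l (-1.81 to 0.62), mt-Nd5 (-1.48 to 0.42), mt-Nd6 (-0.093 to 1.13), mt-Ta (-0.23 to 0.47), mt-Tc (-1.04 to 0.53), mt-Tq (-0.65 to 0.34) and mt-Tv (-1.13 to 0.11). Share differences that changed sign, in points, were those of mt-Atp6 (-0.068 to 0.037), mt-Co2 (-0.0032 to 0.044), mt-Co3 (-0.016 to 0.0046), mt-Nd2 (-0.073 to 8.09), mt-Nd3 (-0.00066 to 0.019), mt-Nd4l (-0.0061 to 0.0010) and mt-Nd5 (-0.15 to 1.76). Those that kept their sign under every left-out library included mt-Rnr1 (0.71 to 1.79), mt-Rnr2 (0.14 to 1.23), mt-Ti (1.12 to 2.61), mt-Tp (1.00 to 1.62), the share of mt-Cytb (-35.5 to -7.51 points), the ratio of mt-Nd6 to mt-Nd5 (0.72 to 1.38) and that of mt-Rnr1 to mt-Rnr2 (0.11 to 1.01). In each of these the groups did not overlap with all libraries kept. Leaving out any library could then not turn the sign, so only the range of sizes is informative. Several tRNAs and mRNAs of the copied stretch rest on few implied fragments, which limits their precision.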

Other observations

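Annotated relatives of mitochondrial genes elsewhere in the nuclear genome were less alike and were mostly at low levels. Of 10 further copies, at 88.5% to 97.6% identity, 6 stayed under 1 FPKM in every library. The highest was Gm13339, a partial copy of mt-Nd2 on chromosome 2 at 96.7% identity, with 3.06 and 2.32 FPKM in the siRNA libraries against 4.38 and 29.9 FPKM in the controls. Gm13340, a full-length copy of mt-Co1 beside it at 97.6%, stood at 1.38 and 0.448 FPKM against 0.516 and 6.04 FPKM. In both, as in the 7 copies on chromosome 1, control replicate 2 was the highest library. The title of that sample names a pair of sequencing lanes where the others name 1, and its part in these values was not tested.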
